A study of Homo sapiens with 12 samples.

Results

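The 38 genes described here encode cytokines, chemokines and the subunits, inhibitors and feedback regulators of the transcription factor NF-kB. They were measured in H358 lung cancer cells on Agilent whole-genome microarrays, which carry 41000 gene probes. A probe was assigned to a gene when the RefSeq accession printed for it in the scanner files belongs to that gene in the RefSeq gene table. By this rule 35 of the 38 genes had at least 1 probe, 46 probes in all, out of 16557 gene symbols matched on the arrays. No probe was matched to CXCL16, IL15 or RELA. Of the 46 probes, 34 probes of 28 genes passed the filter on dim signals and were tested.

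H358 is a human lung carcinoma cell line, and every array holds RNA of H358/Tet-On/SRSF2, a single clone in which a Tet-responsive promoter drives the splicing factor SRSF2. The 6 arrays of the induced condition are labelled SRSF2 over-expression, after 24 hours with 1 µg/mL doxycycline. The 6 control arrays are labelled with no treatment at the same time, and a doxycycline control without the transgene was not analysed here, so the drug and the transgene cannot be told apart. Per the study's methods, each condition had 3 labelings with 2 arrays for each, so the p-values measure the spread between arrays. At least part of this spread is technical. The methods do not say whether the labelings came from separate cultures, or which arrays share a labeling.

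NF-kB is a family of dimers built from RELA, RELB, REL and the processed products of NFKB1 and NFKB2. In resting cells the dimers are held in the cytoplasm by inhibitors such as NFKBIA and NFKBIE, and signals from the TNF and interleukin 1 receptors lead to the destruction of these inhibitors. The released dimers then switch on chemokine and cytokine genes together with genes that shut the pathway off again, NFKBIA and TNFAIP3 among them. In airway epithelium this pathway is known for recruiting neutrophils, through CXC chemokines, and for sustaining myeloid cells, through colony-stimulating factors.

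The binding element of the family, the kappaB site, was looked for on both strands by the consensus GGGRNNYYCC (R is A or G, Y is C or T, N is any base). The search covered the RefSeq promoter windows of build GRCh38.p14, which run from 250 bases before to 50 bases after each transcript start. A site that departs from this consensus was not counted, so a gene without a match may still have a kappaB site. The table holds 27 of the 38 genes, with 37 windows. A match was found for 14 of these 27 genes (51.9%) and for 3619 of all 27305 genes (13.3%). Counted by window, the share was 40.5% for the members and 11.3% for all 35116 windows. Overlapping matches on the 2 strands were counted separately. The stretches below are shown because they hold the matches of the genes that the results turn on, in capitals, and because CXCL8 and CSF2 have no match to the consensus in their windows. They read 5′ to 3′ along the strand of the gene. CXCL1 is at chr4:73869283-73869362 on the plus strand, CXCL2 at chr4:74099226-74099305 and CXCL3 at chr4:74038720-74038799, both on the minus strand, and CXCL8 at chr4:73740459-73740538 on the plus strand. CSF2 is at chr5:132073659-132073738, NFKB1 at chr4:102501249-102501328, NFKB2 at chr10:102394468-102394547, TNFAIP3 at chr6:137867149-137867228 and BIRC3 at chr11:102317274-102317363, all on the plus strand.
CXCL1: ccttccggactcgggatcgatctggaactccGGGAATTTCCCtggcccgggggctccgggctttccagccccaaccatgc
CXCL2: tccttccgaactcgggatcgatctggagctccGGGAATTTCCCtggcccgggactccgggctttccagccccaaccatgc
CXCL3: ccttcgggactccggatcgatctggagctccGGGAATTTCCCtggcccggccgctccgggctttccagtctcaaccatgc
CXCL8: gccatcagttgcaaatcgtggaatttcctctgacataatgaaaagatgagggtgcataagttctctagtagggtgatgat
CSF2: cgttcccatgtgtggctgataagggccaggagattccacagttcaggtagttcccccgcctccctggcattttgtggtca
NFKB1: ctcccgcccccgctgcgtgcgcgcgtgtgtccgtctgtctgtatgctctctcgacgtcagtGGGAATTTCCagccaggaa
NFKB2: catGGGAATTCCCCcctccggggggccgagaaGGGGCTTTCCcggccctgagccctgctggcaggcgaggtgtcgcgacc
TNFAIP3: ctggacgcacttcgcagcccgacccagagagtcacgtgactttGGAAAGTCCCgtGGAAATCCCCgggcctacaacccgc
BIRC3: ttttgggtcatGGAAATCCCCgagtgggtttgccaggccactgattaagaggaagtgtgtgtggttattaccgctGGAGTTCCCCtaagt
The 3 neighbouring chemokine genes CXCL1, CXCL2 and CXCL3 carry the same 11 bases in capitals, whose matches begin at positions from -79 to -77 relative to the start.

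The labels were first checked with the SRSF2 probe. Its log2 signal was measured, as for all probes below, from the 75th percentile of each array. It was between 3.73 and 4.02 on the control arrays, with a median of 3.94. On the arrays labelled SRSF2 over-expression it was between 2.28 and 2.51, with a median of 2.49. The probe was thus lower, not higher, on the induced arrays, with a log2 fold change of -1.46 ± 0.06 (SE; limma, adjusted p = 1.19e-09). The difference was negative under all 17 alternative settings, with a largest adjusted p of 0.00145. Whether the transgene holds the sequence of this probe is not given in the sources used here, and every direction below is that of the arrays as labelled.

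The share of spots well above background was 54.2% to 67.8% on the control arrays and 55.2% to 68.0% on the SRSF2 over-expression arrays, and no spot was saturated. The number of arrays limits the precision. All 11 probes of 8 epithelial marker genes (such as EPCAM, CDH1 and KRT8) were well above background on every array. The summed linear signal of the 8 of them with a value on every array, relative to the 75th percentile, was 591 to 668 on control arrays and 485 to 553 on SRSF2 over-expression arrays. KRT19, the brightest of these 8, weighs most in this sum, with a mean log2 signal of 8.67 in control and 8.16 in SRSF2 over-expression. Of the 11 probes, 4 were higher (CLDN4, EPCAM and both of KRT8, by 0.19 to 0.49 on the log2 scale) and 2 were lower, KRT19 by 0.51 and KRT7, a simple-epithelium keratin, by 1.33 (limma, adjusted p = 4.59e-05 and 1.49e-09). The probes of the leukocyte markers PTPRC, LYZ and FCGR3A were not well above background on any array. The sum over all 9 immune marker probes was 1.65 to 1.98 in control and 1.85 to 2.08 in SRSF2 over-expression. Among fibroblast and endothelial markers COL1A2, PDGFRB and CDH5 were not well above background on any array, and the sum over 8 probes was 1.99 to 3.19 against 1.59 to 2.54. In the same list THY1 and PECAM1 were well above background on every array and 1 of 2 VWF probes on 11. Of these, PECAM1 was lower by 0.47 and VWF higher by 0.30 (adjusted p = 0.000199 and 0.00211), and THY1 was at -0.27 (adjusted p = 0.178). The part of these markers in the results below was not tested. In bulk RNA, fewer cells making a transcript and less transcript in each cell cannot be told apart.

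Among the 34 tested member probes, 13 were down-regulated and 7 were up-regulated on the SRSF2 over-expression arrays (limma, adjusted p of at most 0.05), and 14 did not pass the threshold. Over all 24331 probes tested, 28.4% were down-regulated and 29.5% up-regulated by the same test, so the members' shares were 38.2% and 20.6% against these. With the additional threshold of a 2.0 FC, 2 member probes were down-regulated, those of CSF2 and BIRC3 (5.88%, against 3.37% of all probes), and 0 were up-regulated (against 3.65%). No tested member probe was 2-fold higher at any p, and the 7 up-regulated probes had fold changes of 1.12 to 1.94. The arrays of both conditions did not overlap for 12 member probes that were lower and 5 that were higher, which is 35.3% and 14.7%, against 19% and 21.2% of all probes. The median log2 fold change of the members was -0.21, beside 0.00 for all probes, whose quartiles were -0.31 and 0.30. These shares are counts over a chosen list and carry no test of their own. Of the 34 probes, 1 (CCL20) passed the filter through the control arrays alone and 3 (IL33 and both probes of TNFSF9) through the SRSF2 over-expression arrays alone; among the other 30 probes, 12 were lower and 6 were higher. The calls moved with the scaling and the background correction. Scaled on spike-in controls, 4 probes were lower and 4 higher and 7 of the 20 calls remained, and with normexp background correction 3 (CSF2, CXCL1 and BIRC3) were lower and 0 higher by limma; at an unadjusted p under 0.05 with normexp, 6 were lower and 1 was higher. With the mean of 2 arrays as 1 replicate, those of a condition on the same slide, 12 of the 20 calls remained. The calls lost there were those of CXCL2 probe A_24_P257416, CXCL3, CX3CL1 probe A_23_P37727, IL6, IL23A, IL33, TNFAIP3 and ICAM1. Calls were lost over all 24331 probes as well, where the main setting gave 6912 lower and 7172 higher. Spike-in scaling gave 1530 lower and 5066 higher, normexp 1437 and 1405, and the mean of 2 arrays 4701 and 4756.

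**Figure D1:**
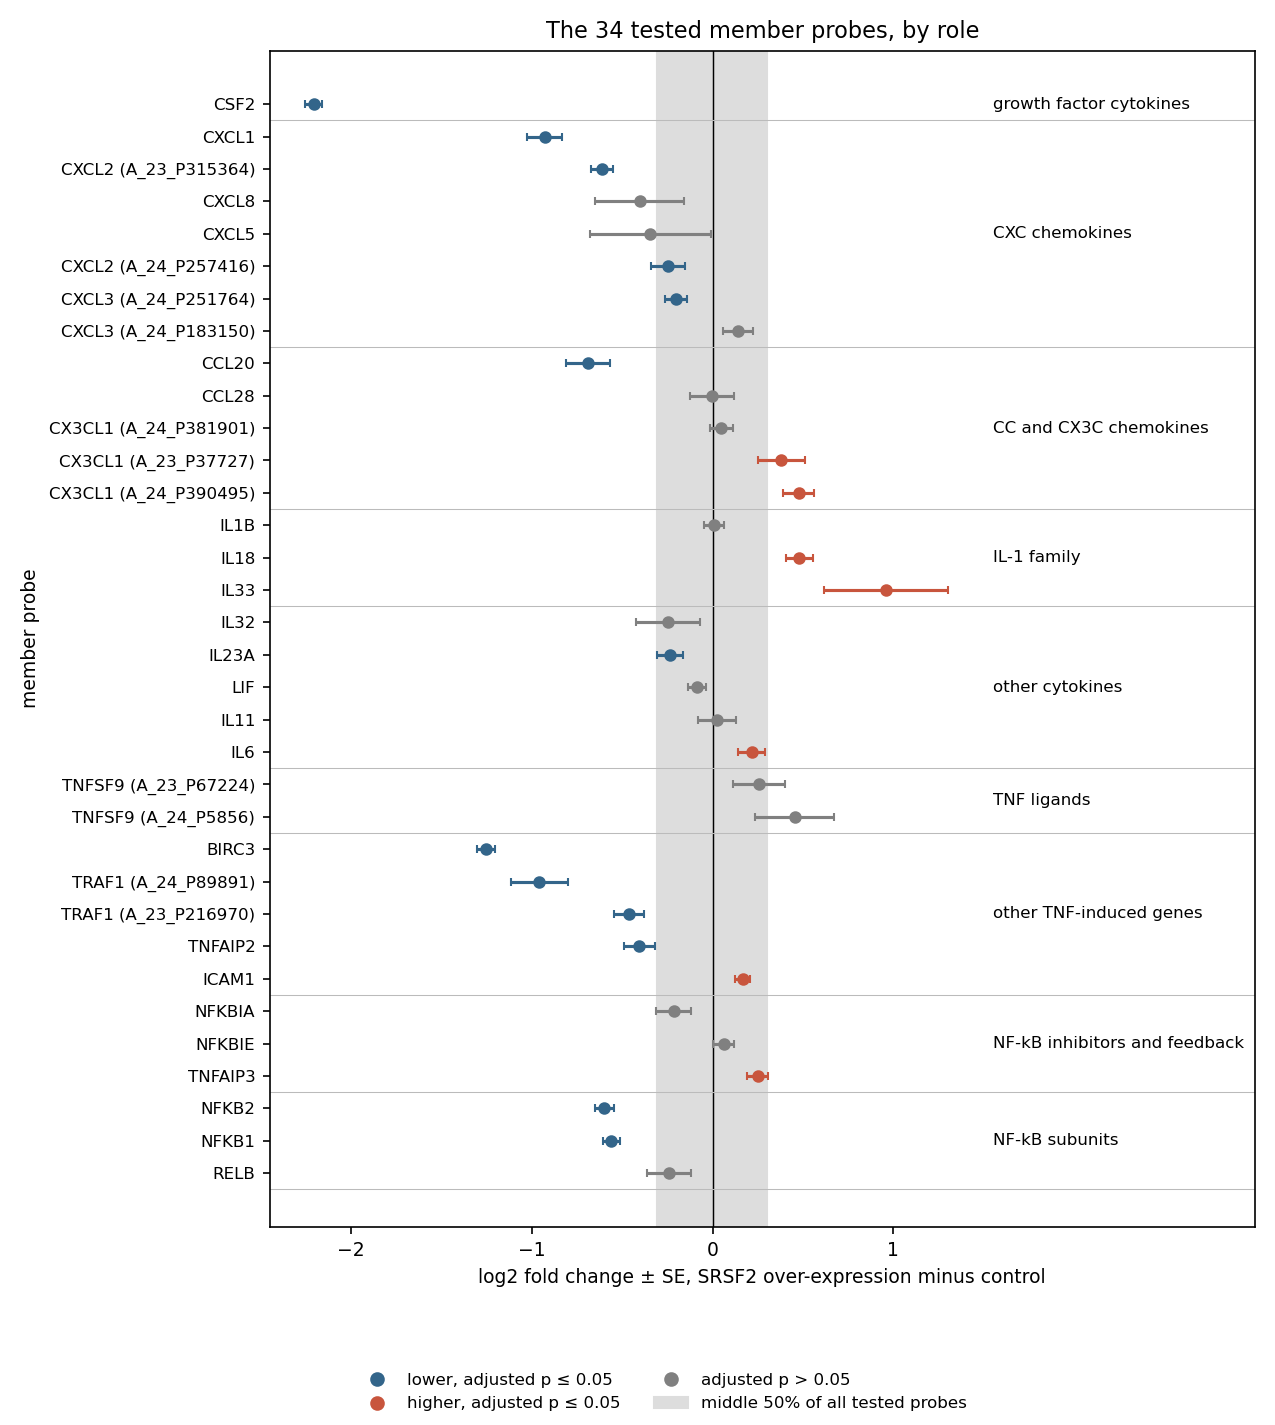
Log2 fold change (SRSF2 over-expression minus control) with its standard error for each of the 34 tested member probes, grouped by role; blue and red points passed the threshold (adjusted p of at most 0.05), and the grey band runs between the quartiles of all 24331 tested probes. CSF2, at -2.21, and BIRC3, at -1.26, lie farthest to the left, and IL33, at 0.96, farthest to the right with the widest error.

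CSF2 was the only tested probe among the growth factor cytokines and showed the largest fold change of all member probes. It encodes GM-CSF, which sustains granulocytes and macrophages. On the control arrays its log2 signal was 1.09 at the lowest, 1.19 at the median and 1.27 at the highest, with a mean of 1.18 ± 0.07 (SD, n = 6). On the SRSF2 over-expression arrays it was -1.09, -1.03 and -0.99, with a mean of -1.03 ± 0.04 (SD, n = 6). The 2 conditions were more than 2 log2 units apart on every array, with hardly any spread within either. The log2 fold change was -2.21 ± 0.04 (SE; limma, adjusted p = 6.60e-12), a 4.62-fold decrease, and the exact two-sided permutation p of 0.00216 is the smallest that 6 against 6 arrays allow. By slide, each of which held 2 arrays of both conditions, the difference was -2.17, -2.31 and -2.15, and it was past the threshold under all 17 alternative settings, the smallest change being -1.73. CSF1, the macrophage colony-stimulating factor, had a probe that was well above background on 4 of 6 arrays in both conditions and a second one on none. CSF3, which drives granulocyte production, was not well above background on any array, so neither gene was tested.

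The CXC chemokines that attract neutrophils through the receptors CXCR1 and CXCR2 were lower where they passed the test, and none was higher. Of 7 tested probes, 4 were lower (57.1%, against 28.4% of all probes), both probes of CXCL2 among them. CXCL1 was at 1.91, 2.01 and 2.20 (lowest, median and highest log2 signal) on the control arrays. It was at 0.95, 0.99 and 1.42 on the SRSF2 over-expression arrays, where both arrays of slide 3 were the highest. The conditions did not overlap, and the log2 fold change was -0.93 ± 0.10 (SE; limma, adjusted p = 3.49e-06), a 1.90-fold decrease. It was past the threshold under all 17 alternative settings. CXCL2, whose probe A_23_P315364 gave 3.52, 3.59 and 3.64 in control, was at 2.83, 2.95 and 3.15 in SRSF2 over-expression. This fall of 0.61 ± 0.06 on the log2 scale (limma, adjusted p = 1.78e-06) was without overlap as well, but its adjusted p was 0.175 with spike-in scaling and 0.168 with normexp.

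The second probes of CXCL2 and CXCL3 showed much smaller differences. CXCL2 probe A_24_P257416 was lower by 0.25 on the log2 scale (limma, adjusted p = 0.0399), and with the replicate number as a block its adjusted p was 0.0592. Without slide 2 it was 0.258 and without slide 3 it was 0.328. CXCL3, a close relative of CXCL1 and CXCL2, had 2 tested probes of opposite sign. Probe A_24_P251764 was at -0.20 (adjusted p = 0.0133; 0.0642 without slide 3) and turned to 0.01 with spike-in scaling, and probe A_24_P183150 was at 0.14 (adjusted p = 0.158; normexp -0.18). Since the mRNAs of CXCL1, CXCL2 and CXCL3 are alike in sequence, signal shared between their probes cannot be told apart from the gene's own.

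CXCL8 and CXCL5, a further pair of neutrophil attractants, differed more between slides than between conditions. For CXCL8 the slide means of the log2 signal were -0.05, -0.85 and 0.04 in control and -0.46, -1.32 and -0.29 in SRSF2 over-expression. Slide 2 was thus the lowest in both conditions, and within each slide the SRSF2 over-expression arrays were the lower ones, by 0.41, 0.47 and 0.33. The log2 fold change of -0.40 ± 0.25 (SE) had an adjusted p of 0.18 in limma without a block and of 0.000246 with the replicate number as a block, and of 0.00262 without slide 2. CXCL5 was at -0.319, -1.67 and -0.996 by slide in control and at -0.57, -2.05 and -1.41 in SRSF2 over-expression. Again the SRSF2 over-expression arrays were lower on each slide, and the log2 fold change of -0.34 ± 0.33 (SE) had an adjusted p of 0.402 in limma without a block and of 0.00162 with the replicate block. The second CXCL5 probe and the probe of CXCL6 were not well above background on any array. Control and SRSF2 over-expression arrays of a shared slide deviated together, with equal or unequal numbers. The blocked values are given for these 2 genes, and for RELB and NFKBIA below, because the replicate block added their calls. Each of them also passed the threshold with the slide as the block.

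**Figure D2:**
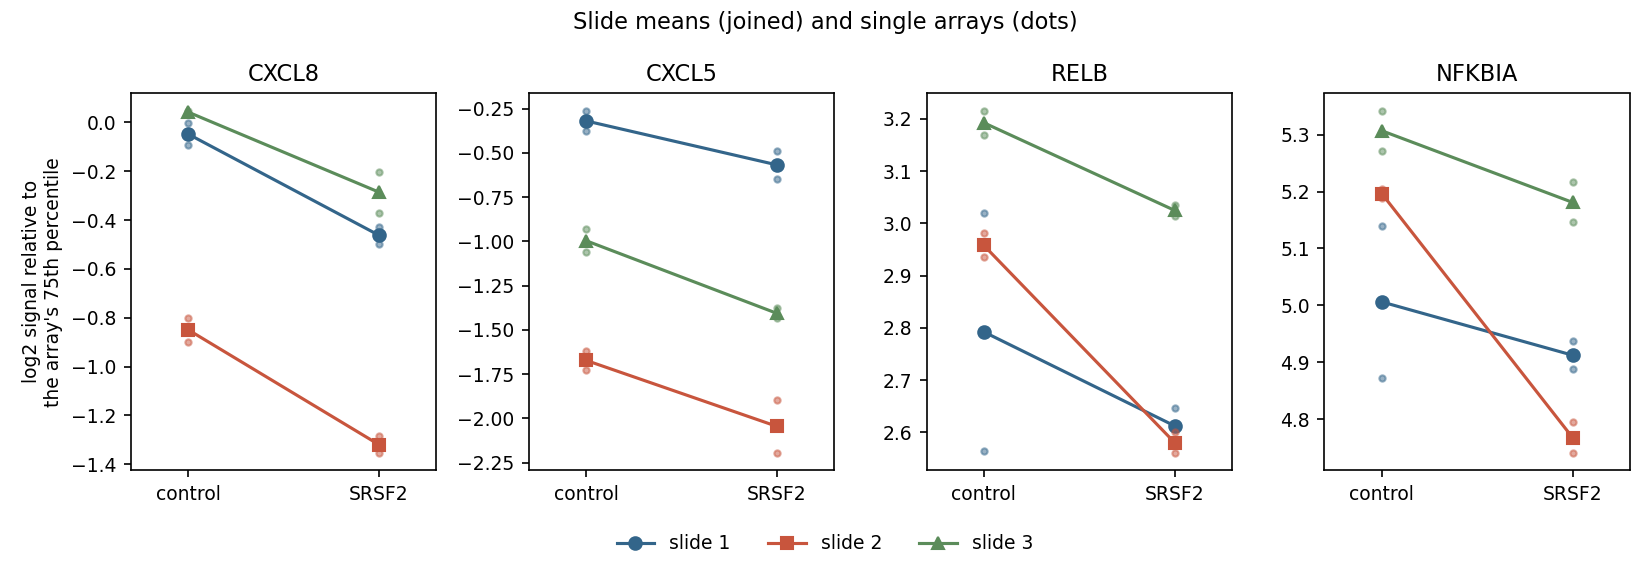
Log2 signal relative to the array's 75th percentile (vertical axis) of CXCL8, CXCL5, RELB and NFKBIA in control and SRSF2 over-expression; dots are single arrays and joined symbols are slide means. All joined lines fall from control to SRSF2 over-expression, and for CXCL8 and CXCL5 the slides lie farther apart than the conditions.

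**Figure D3:**
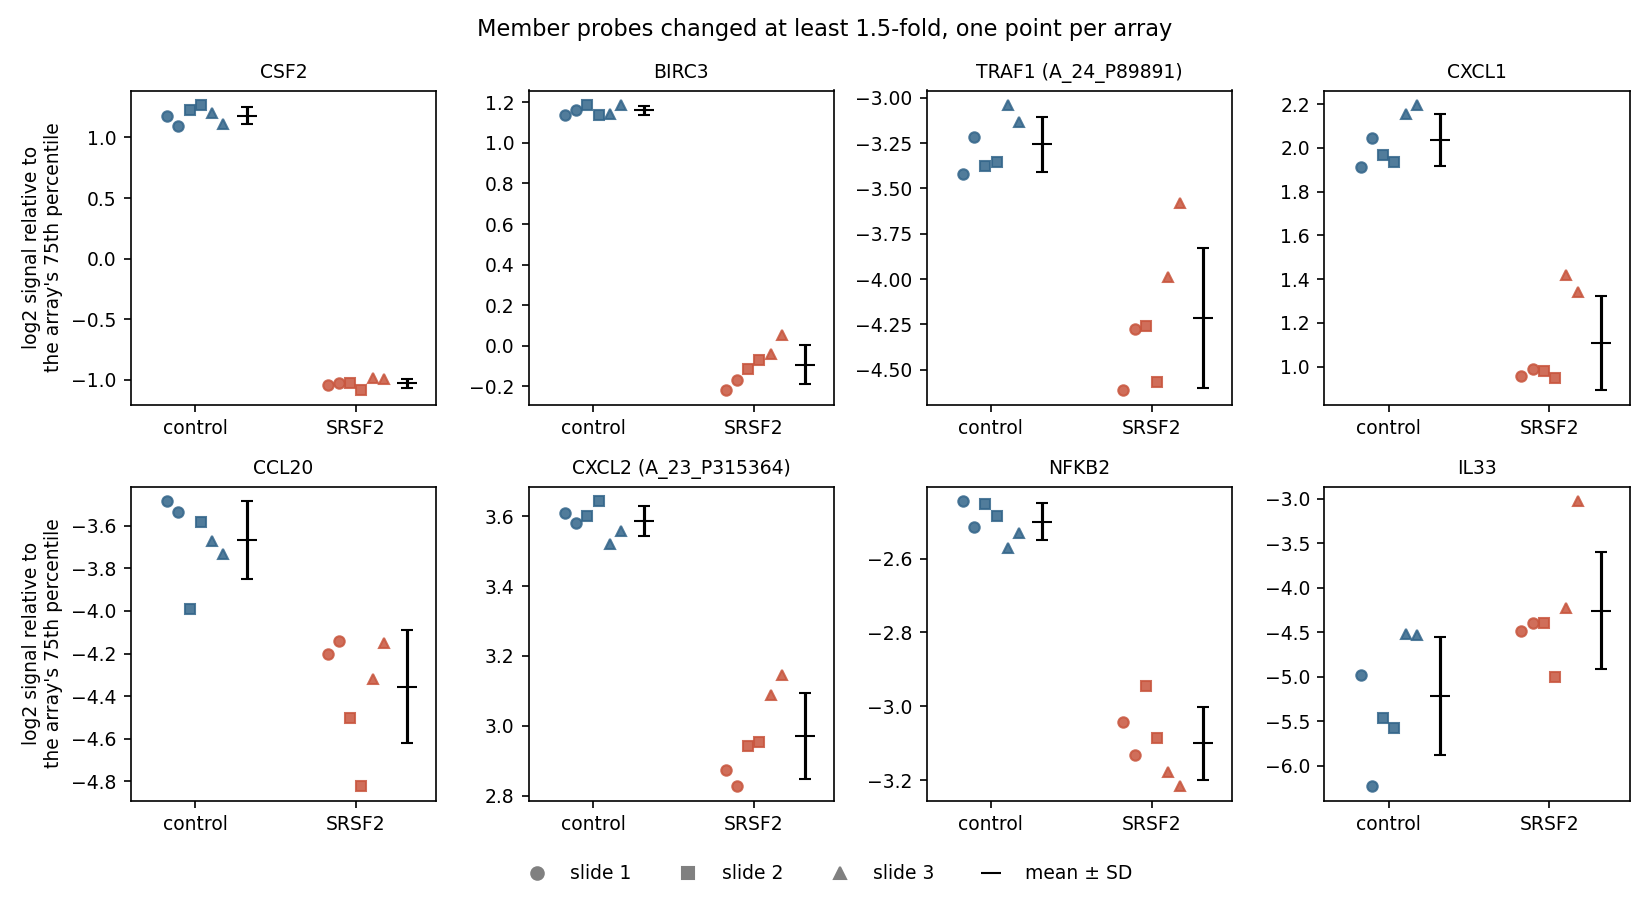
Log2 signal relative to the array's 75th percentile for the 8 member probes past the threshold with a change of at least 1.5-fold, with 1 point per array, the slide as the symbol, and the mean with its SD beside the points. The conditions do not overlap for any of the 7 probes that fell, and they overlap for IL33.

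The CC and CX3C chemokines went both ways. CCL20, which attracts cells bearing the receptor CCR6, gave -3.99, -3.63 and -3.48 in control and -4.82, -4.26 and -4.14 in SRSF2 over-expression. It is a dim probe, well above background on 5 control and 4 SRSF2 over-expression arrays. Its log2 fold change was -0.69 ± 0.12 (SE; limma, adjusted p = 0.000362), and its adjusted p was 0.104 with spike-in scaling and 0.62 with normexp. CX3CL1, a membrane-bound chemokine that can be shed, had 3 tested probes. Probe A_24_P390495 rose by 0.48 ± 0.09 on the log2 scale (limma, adjusted p = 0.000426) and probe A_23_P37727 rose by 0.38 ± 0.13 (adjusted p = 0.0215), both without overlap, while probe A_24_P381901 was at 0.05 (adjusted p = 0.543). For A_23_P37727 the gap was narrow, from 3.2933 on the highest control array to 3.2997 on the lowest SRSF2 over-expression array. The call of A_23_P37727 was lost without slide 2 (adjusted p = 0.0584) and without slide 3 (adjusted p = 0.0603). It was also lost with spike-in scaling, with normexp, without background subtraction and with the mean of 2 arrays. CCL28, a mucosal chemokine, was at -0.00 ± 0.12 (adjusted p = 0.982). The monocyte and T cell attractants CCL2 and CCL5 were not well above background on any array.

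In the interleukin 1 family, IL18 was higher, IL1B did not pass the threshold, and IL33 entered the test through the SRSF2 over-expression arrays alone. IL18, which is released after cleavage by inflammatory caspases, rose by 0.48 ± 0.07 on the log2 scale, from a mean of -1.12 ± 0.07 to -0.64 ± 0.17 (SD, n = 6 each; limma, adjusted p = 0.000125), without overlap. IL33, a nuclear cytokine of epithelial cells, was at -6.23, -5.22 and -4.53 in control and at -5.01, -4.40 and -3.03 in SRSF2 over-expression. Its spot was well above background on 1 array of control and 5 of SRSF2 over-expression, and the conditions overlapped. Its log2 fold change was 0.96 ± 0.35 (SE; limma, adjusted p = 0.0303), with an adjusted p of 0.136 without slide 1 and of 0.0781 without slide 2, and with normexp it turned to -0.22. IL1B, an alarm cytokine of the same family, was at 0.01 ± 0.06 (adjusted p = 0.898), and IL1A was not well above background on any array.

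The other cytokines differed little. IL6, which signals through IL6ST, was higher by 0.22 ± 0.08 on the log2 scale (limma, adjusted p = 0.0261) with overlapping conditions, and without slide 3 its adjusted p was 0.162. IL23A, the subunit specific to interleukin 23, was lower by 0.24 ± 0.07 (adjusted p = 0.0116) and had an adjusted p of 0.0712 without slide 2. IL11 (0.02, adjusted p = 0.865) and LIF (-0.08, adjusted p = 0.172), both of which signal through the same IL6ST chain, did not pass the threshold. IL32 was at -0.25 (adjusted p = 0.256), and without slide 1 at -0.47 (adjusted p = 0.0131). The TNF ligand TNFSF9, which binds a costimulatory receptor of T cells, had 2 dim probes at 0.26 and 0.45 (adjusted p = 0.141 and 0.0963). TNF itself had 2 probes, each well above background on 1 array of control and 2 of SRSF2 over-expression, so the gene was not tested. The second probe of LIF was as dim as these, and a second probe of TNFAIP3 was not well above background on any array.

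Among the other TNF-induced genes, 4 of 5 tested probes were lower (80%, against 28.4% of all probes), both probes of TRAF1 among them. BIRC3, a ubiquitin ligase that protects from cell death at the TNF receptor, was between 1.14 and 1.19 on the control arrays, with a median of 1.15. On the SRSF2 over-expression arrays it was at -0.22, -0.09 and 0.05. The control arrays varied by less than 0.1 on the log2 scale, and the conditions lay more than 1 apart. The log2 fold change was -1.26 ± 0.05 (SE; limma, adjusted p = 1.01e-09), a 2.39-fold decrease, with slide differences of -1.35, -1.26 and -1.16, and it was past the threshold under all 17 alternative settings. With normexp it was -0.98, just under 2-fold.

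TRAF1, an adaptor that binds BIRC3 and TNF receptors, was lower with both probes. Probe A_24_P89891 gave -3.42, -3.28 and -3.04 in control and -4.61, -4.27 and -3.58 in SRSF2 over-expression, where slide 3 was the highest. Its log2 fold change was -0.96 ± 0.16 (SE; limma, adjusted p = 0.000172; 0.477 with normexp), and that of probe A_23_P216970 was -0.46 ± 0.08 (adjusted p = 0.000388; 0.421 with spike-in scaling and 0.478 with normexp). TNFAIP2 fell by 0.40 (adjusted p = 0.0018) over 6 control and 5 SRSF2 over-expression arrays, since 1 spot was flagged as an outlier and left missing. ICAM1, the adhesion molecule that leukocytes bind, rose by 0.17 ± 0.04 (adjusted p = 0.00425), without overlap. With normexp it was at 0.03 (adjusted p = 0.904), and its adjusted p was 0.198 with spike-in scaling, 0.163 with the mean of 2 arrays and 0.0909 with that mean blocked by slide.

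Of the NF-kB subunits, NFKB1 and NFKB2 were lower. NFKB2, the precursor of p52, was at -2.57, -2.50 and -2.44 in control and at -3.22, -3.11 and -2.94 in SRSF2 over-expression. The conditions were separated by more than their ranges, with a log2 fold change of -0.60 ± 0.05 (SE; limma, adjusted p = 8.57e-07). NFKB1, the precursor of p50, went from a mean of 1.88 ± 0.05 to 1.32 ± 0.06 (SD, n = 6 each), a log2 fold change of -0.56 ± 0.04 (SE; limma, adjusted p = 3.32e-07), also without overlap. Both calls were lost with spike-in scaling (adjusted p = 0.241 for NFKB1 and 0.172 for NFKB2) and with normexp (0.102 and 0.42), while the differences kept their sign. RELB, the partner of p52, was lower by 0.24 ± 0.12, with an adjusted p of 0.111 in limma without a block and of 0.0228 with the replicate block, and with normexp it was at 0.00.

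The inhibitors and feedback genes showed small differences. NFKBIA, the inhibitor that NF-kB itself induces, was at -0.22 ± 0.10 (limma, adjusted p = 0.0761), with an adjusted p of 0.0279 with the replicate block and of 0.0393 without slide 3, but of 0.0969 with the mean of 2 arrays blocked by slide, and with normexp it was at 0.04. NFKBIE, a second inhibitor, was at 0.06 ± 0.06 (adjusted p = 0.395). TNFAIP3, the ubiquitin-editing enzyme A20 that shuts the pathway off, rose by 0.25 ± 0.06 (adjusted p = 0.00243), without overlap. With normexp it was at -0.23 (adjusted p = 0.741), and without background subtraction it was at 0.10 (adjusted p = 0.27).

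**Figure D4:**
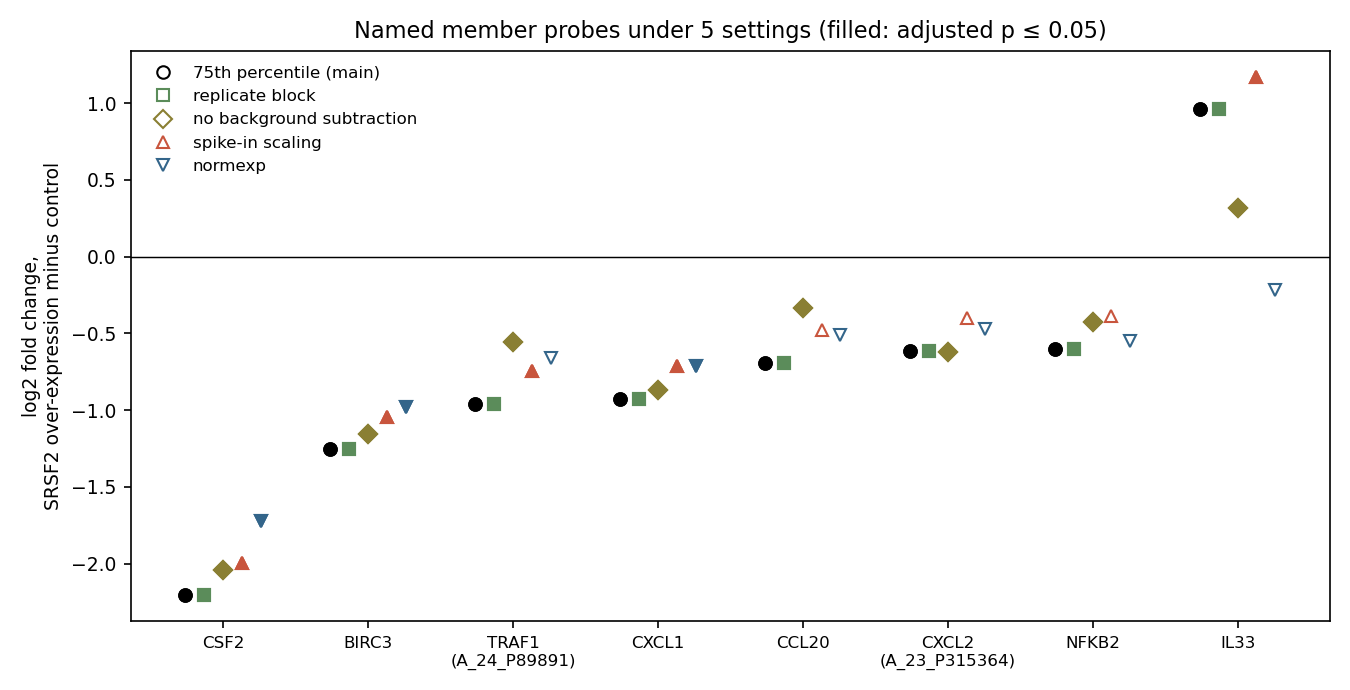
Log2 fold change (SRSF2 over-expression minus control) of the 8 member probes changed at least 1.5-fold, under the main setting and 4 alternatives; filled symbols have an adjusted p of at most 0.05. CSF2, BIRC3 and CXCL1 are filled throughout, and IL33 lies below 0 with normexp.

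The calls were set beside the promoter matches as a description. Of the 15 tested probes of genes with a kappaB match, 9 were lower, 2 were higher and 4 did not pass the threshold. Of the 12 tested probes of genes without a match, 4 were lower, 2 were higher and 6 did not pass. The promoter windows do not cover CX3CL1, IL18, LIF, RELB and NFKBIE, so their tested probes are in neither group. Among these left-out probes, those of IL18 and CX3CL1 (A_24_P390495 and A_23_P37727) were higher, and no probe was lower. Over all tested probes of genes in the promoter table, 31.1% were lower and 28.2% higher among 2353 with a match, and 28.9% were lower and 33% higher among 11127 without. The members with a match include 3 alike chemokine genes, and no difference between these shares was tested. CSF2 and TRAF1 were lower without a match in their windows, and TNFAIP3 and IL6 were higher with one. The 3 CXCL genes with the same 11 bases had log2 fold changes from -0.93 to 0.14.

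The other genes of the pathway were described from fixed lists. Of 36 tested probes of 28 NF-kB activating components (adaptors, kinases and the ubiquitin ligases of the receptor complex), 12 were lower and 11 were higher, near the shares of all probes. Of these, 3 changed at least 2-fold. MAP3K8, a kinase acting downstream of the TNF receptor, fell by 1.67 ± 0.22 on the log2 scale (limma, adjusted p = 2.85e-05); its spot was well above background on 6 arrays of control and 2 of SRSF2 over-expression, so it entered the test through the control arrays, where it was the higher. TAB1, a partner of the kinase MAP3K7, fell by 1.08 ± 0.13 (adjusted p = 1.08e-05). IKBKB, the catalytic kinase that marks the inhibitors for destruction, had probes that went opposite ways. Its probe A_24_P155058 rose by 1.80 ± 0.17 (adjusted p = 1.54e-06), from -3.43, -3.33 and -3.09 in control to -1.93, -1.61 and -0.90 in SRSF2 over-expression. Its probes A_23_P216188 and A_24_P132518 fell by 0.45 ± 0.05 and 0.27 ± 0.05 (adjusted p = 8.76e-06 and 0.000813). With normexp the adjusted p was 0.288 for this rise and 0.37 for MAP3K8.

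Of 17 tested probes of other NF-kB brakes (CYLD, TNIP1 and the like), 4 were lower and 3 were higher. These are 23.5% and 17.6%, against 28.4% and 29.5% of all probes, and 0 changed 2-fold at any p. Of 20 tested probes of other NF-kB target genes, 9 were lower and 5 were higher (45% and 25%). BCL2A1, which protects from apoptosis, fell by 0.54 ± 0.07 with probe A_23_P321703 (limma, adjusted p = 1.33e-05), well above background on every array. Its second probe, A_23_P152002, was well above background on 5 arrays of control and 2 of SRSF2 over-expression and so entered the test through the control arrays alone, with a log2 fold change of -1.70 ± 0.20 (adjusted p = 1.24e-05; 0.385 with normexp). Of 18 tested probes of the receptors for the members' ligands, 7 were lower and 5 were higher (38.9% and 27.8%). LIFR, the receptor chain for LIF, fell by 1.17 ± 0.31 with A_24_P325992 (adjusted p = 0.00605, conditions overlapping; 0.0641 with the mean of 2 arrays, 0.0733 without slide 1 and 0.0552 without slide 3) and by 0.39 ± 0.14 with A_24_P397386 (adjusted p = 0.0364). Another 15 receptor probes were not well above background on any array.

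Proteins that bind AU-rich elements, through which many cytokine mRNAs are degraded, had 16 tested probes, of which 5 were lower and 4 were higher. These are 31.25% and 25%, beside 28.4% and 29.5% of all probes. ELAVL1, which stabilises such mRNAs, fell by 1.20 ± 0.09 with probe A_32_P200165 (limma, adjusted p = 1.68e-07; 0.125 with normexp). Its other probes did not pass the threshold, at -0.06 (adjusted p = 0.537) and 0.29 (adjusted p = 0.067). The data do not show which of the probes of ELAVL1 or of IKBKB stands for which transcript.

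**Figure D5:**
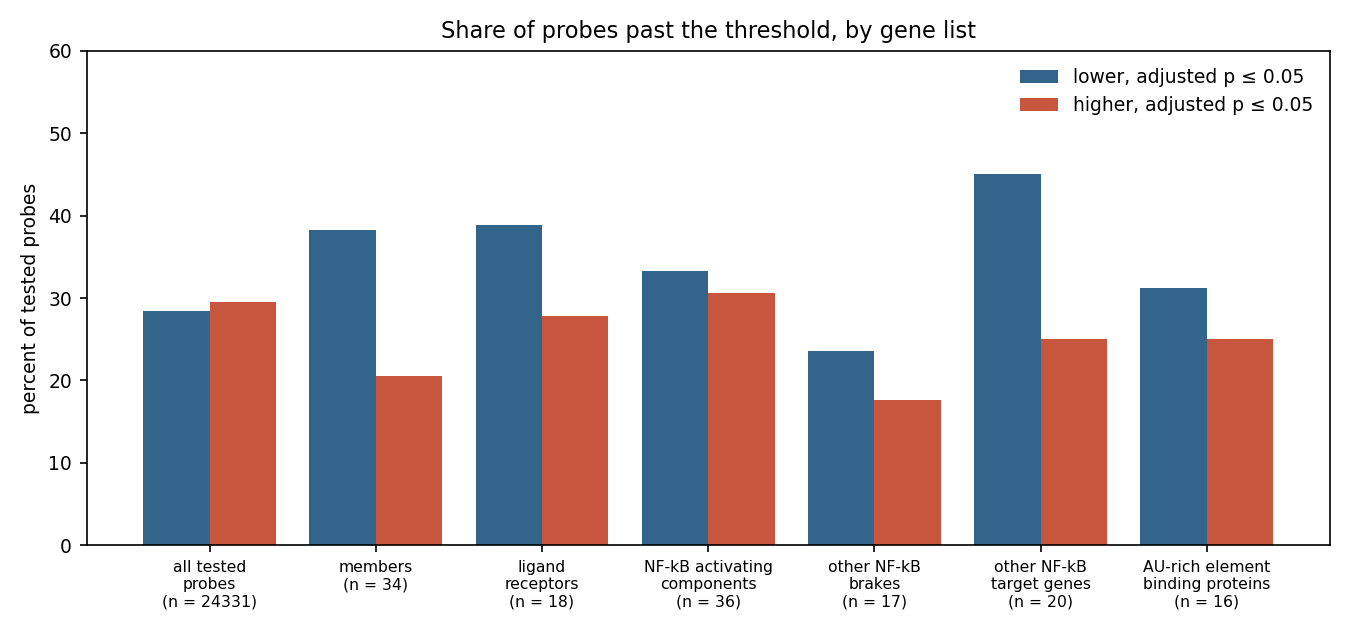
Percent of tested probes that were lower or higher with an adjusted p of at most 0.05, for all 24331 tested probes, the 34 member probes and 5 other gene lists of the pathway, with the number of tested probes under each pair of bars. The members had 38.2% lower and 20.6% higher, beside 28.4% and 29.5% of all probes.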

How the data were processed

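RNA was measured on 12 one-colour Agilent arrays, 6 of control and 6 of SRSF2 over-expression. The authors deposited the Feature Extraction 10.7.3.1 scanner output, with a processed intensity per spot after background subtraction. They also deposited a table of log2 values, found here to be the log2 processed intensity scaled to the 75th percentile and centred per probe. Coordinates of probes are not given, since the annotation in the files is hg18.

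Here the log2 processed intensity minus the array's 75th percentile over gene probes was used. Spots of a probe were averaged, and outlier spots were left missing. A probe was tested if 25% of the arrays or fewer lacked a value and if, in a condition, 5 or more of the 6 arrays were well above background. Conditions were compared over all 24331 probes with limma 3.58.1 (lmFit, eBayes; R 4.3.3) and Benjamini-Hochberg adjustment, checked beforehand on simulated data. Single values were compared by an exact permutation test (Python 3.11.15). Member probes past the threshold by at least 1.5-fold are given in full and the other members by fold change or count. In the other lists, probes changed at least 2-fold are named, with the other probes of their genes; KRT7 is named by the same rule. The members and lists were chosen with earlier results of these data known.

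RefSeq accessions named 23958 of 41000 gene probes; 17042 have no name here. In their deviations from the condition means, control and SRSF2 over-expression arrays with equal numbers correlated by 0.28 to 0.64 (6 pairs). Arrays with unequal numbers on a shared slide correlated by 0.33 to 0.65, and arrays on different slides by -0.48 to -0.05. The arrays thus deviated together by slide, and equal numbers were no closer than unequal ones on that slide.

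The alternatives were scaling on spike-in controls, on the median or by quantiles; normexp (offset 50, on the median spot intensity, as the mean is not among the columns used) or no subtraction of background; the values of the deposited table; dim probes left in, or filtered more strictly (9 arrays); keeping outlier spots; the t-test that the methods name; a block for the slide or for the replicate number; averaging 2 arrays into 1 replicate; and leaving out each slide.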

Additional observations from a re-analysis of the deposited data

Results flagged for a closer look

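In 3 of the 68 groups of 6 arrays, 1 array stood apart from the other 5, and chance alone sets about 1 in 20 groups apart in this way. CXCL2 probe A_24_P257416 was at 0.60 on control replicate 2, while the nearest control array was at 1.12. CX3CL1 probe A_23_P37727 was at 2.45 on the same array, while the nearest was at 2.99. CCL28 was at -1.14 on SRSF2 over-expression replicate 4, while the nearest was at -1.58. All 3 probes were well above background on every array.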

How the results depend on the processing

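CSF2, BIRC3 and CXCL1 kept their direction and an adjusted p of at most 0.05 under all 17 alternatives. The number of up-regulated member probes was 4 with spike-in scaling, 0 with normexp (limma; 1 at an unadjusted p under 0.05) and 2 with the mean of 2 arrays as 1 replicate, against 7. The number of down-regulated ones was 4 with spike-in scaling and 3 with normexp, against 13. With the 2-fold threshold, spike-in scaling gave 1 up-regulated probe, IL33, against 0, and normexp 1 down-regulated probe, CSF2, against 2. Among single probes, normexp turned IL33 to -0.22 and TNFAIP3 to -0.23, and spike-in scaling turned CXCL3 probe A_24_P251764 to 0.0123. With the replicate block, 7 member probes were up-regulated and 16 down-regulated; 19 of the 20 calls remained, that of CXCL2 probe A_24_P257416 was lost, CXCL5, CXCL8, RELB and NFKBIA were added, and the block changed no other call. Spike-in scaling shifted the median of all probes by 0.21 on the log2 scale and made 78.5% of the 2-fold calls higher, against 52% in the main setting. Over all probes, spike-in scaling left 5066 higher and 1530 lower, and normexp 1405 and 1437, against 7172 and 6912 in the main setting. The cause of these shifts was not tested. For CCL20, IL33, TNFSF9, MAP3K8 and BCL2A1, signals near background limit the precision. Over the single member probes and all alternatives, 576 values in all, 482 kept their direction and their side of the threshold, 58 lost the call and 18 gained it. The sign turned in 18 others, 3 of them called in the main setting (given above) and 15 past the threshold in neither.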
